A study of Mus musculus with 6 samples.

Results

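The genes examined here encode the receptors for the classical neurotransmitters in the mouse: the channels and G protein-coupled receptors for glutamate, GABA, glycine, acetylcholine, serotonin, dopamine and the adrenergic amines. They were picked out by gene symbol from the protein-coding genes of GENCODE M1 on mm9, which gave 101 genes out of 22367 annotated as protein-coding on the 21 chromosomes that carry peaks. Binding was read from the deposited peak list of 1 anti-V5 ChIP-seq library from CGR8, a feeder-free mouse embryonic stem cell (ESC) line grown in serum with leukemia inhibitory factor. The cells stably expressed Dppa2 with an N-terminal V5 tag from a pPyCAG vector, in addition to their own Dppa2 gene, and came from puromycin-selected clones whose number is not given in the sources used here. Parental CGR8 ESCs without a V5 tag were the control ChIP, which enters through the authors' peak calling. Both ChIPs started from the same number of cells. The series also holds modified ChIPs for H3K4me1, H3K4me3, H3K27ac and H3K9me3 in CGR8, which were not analysed here. A peak list measures no expression, so the ESC label could not be checked against marker genes.

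Neurotransmitter receptors fall into ligand-gated channels, which open when the transmitter binds, and G protein-coupled receptors, which signal through second messengers. The channels are assembled from several subunits, and the choice of subunits sets where and when in the nervous system a receptor type is found. Most of these genes are best known from neurons, muscle and retina. Dppa2 is a SAP domain protein of pluripotent and germ cells, and the comparison asks which receptor genes carry it at their start in ESCs.

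A gene was called Dppa2-bound when the midpoint of a peak lay within 1000 bp of a transcription start site (TSS) of any of its transcripts. By this rule 19 of the 101 receptor genes were bound, or 18.8%, with an exact Clopper-Pearson 95% interval of 11.7 to 27.8% that covers counting error alone. Of all protein-coding genes, 14.2% were bound, a share inside that interval. The receptor genes as a whole were therefore not distinguishable at this number of genes from all genes in how often they were bound, and the data below concern which of them were bound and what their promoters look like. The 19 genes had 19 distinct peaks, none of them shared between receptor genes.

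The DNA under the peaks is shown first, since bound receptor promoters differed widely in their CpG content. The 200 bases around the peak midpoint are given for 5 of the bound genes with the highest scores and for the highest-scoring glycine and metabotropic glutamate receptor gene. They are read 5′ to 3′ on the strand of the gene from mm9, and capitals mark every CpG dinucleotide.
Gabra5 (chr7:64764845-64765044, minus strand): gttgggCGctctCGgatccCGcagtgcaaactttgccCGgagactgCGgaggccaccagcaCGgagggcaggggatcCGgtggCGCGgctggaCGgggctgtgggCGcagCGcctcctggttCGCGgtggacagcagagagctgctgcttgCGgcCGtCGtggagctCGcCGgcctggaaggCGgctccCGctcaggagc
Chrne (chr11:70429598-70429797, minus strand): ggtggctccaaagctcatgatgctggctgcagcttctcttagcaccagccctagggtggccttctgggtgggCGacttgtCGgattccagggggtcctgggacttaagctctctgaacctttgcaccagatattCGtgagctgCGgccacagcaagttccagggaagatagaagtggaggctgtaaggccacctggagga
Htr7 (chr19:36131614-36131813, minus strand): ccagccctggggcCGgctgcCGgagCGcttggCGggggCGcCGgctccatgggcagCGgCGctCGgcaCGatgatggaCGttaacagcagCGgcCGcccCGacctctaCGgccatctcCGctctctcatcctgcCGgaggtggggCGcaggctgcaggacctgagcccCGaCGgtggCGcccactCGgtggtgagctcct
Grin1 (chr2:25174362-25174561, minus strand): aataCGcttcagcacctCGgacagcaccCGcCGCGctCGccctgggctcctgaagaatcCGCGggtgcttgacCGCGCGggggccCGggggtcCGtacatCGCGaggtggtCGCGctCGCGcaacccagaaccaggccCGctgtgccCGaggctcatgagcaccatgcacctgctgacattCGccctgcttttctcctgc
Drd5 (chr5:38710984-38711183, plus strand): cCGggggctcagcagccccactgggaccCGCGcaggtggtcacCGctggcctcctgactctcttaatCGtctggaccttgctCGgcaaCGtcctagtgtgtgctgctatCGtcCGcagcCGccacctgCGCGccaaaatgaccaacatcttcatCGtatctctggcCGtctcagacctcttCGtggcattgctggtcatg
Glrb (chr3:80717288-80717487, minus strand): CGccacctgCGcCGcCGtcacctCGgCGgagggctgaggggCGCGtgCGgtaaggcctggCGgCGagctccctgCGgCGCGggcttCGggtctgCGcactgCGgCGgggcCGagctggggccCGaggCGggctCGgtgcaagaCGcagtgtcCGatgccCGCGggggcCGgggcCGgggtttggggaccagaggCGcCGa
Grm6 (chr11:50664654-50664853, plus strand): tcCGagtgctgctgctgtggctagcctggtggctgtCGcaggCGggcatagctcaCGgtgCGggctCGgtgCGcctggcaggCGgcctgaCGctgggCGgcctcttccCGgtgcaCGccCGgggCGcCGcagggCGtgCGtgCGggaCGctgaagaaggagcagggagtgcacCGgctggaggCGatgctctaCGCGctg

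These stretches hold between 4 and 30 CpGs. The most are in Glrb, with 30 and a GC content of 79.0%, and the fewest in Chrne, with 4 and a GC content of 57.5%. For contrast, the same length is shown around the TSS of Gria2 and Grik3, the AMPA and the kainate receptor gene with the most CpG-rich promoter. Neither gene was bound, and the pair was chosen after the values had been seen.
Gria2 (chr3:80606613-80606812, minus strand): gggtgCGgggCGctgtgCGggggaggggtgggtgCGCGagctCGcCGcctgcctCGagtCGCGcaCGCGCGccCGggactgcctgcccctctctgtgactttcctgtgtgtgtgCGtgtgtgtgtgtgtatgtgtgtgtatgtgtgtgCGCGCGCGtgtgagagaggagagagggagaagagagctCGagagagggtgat
Grik3 (chr4:125167844-125168043, plus strand): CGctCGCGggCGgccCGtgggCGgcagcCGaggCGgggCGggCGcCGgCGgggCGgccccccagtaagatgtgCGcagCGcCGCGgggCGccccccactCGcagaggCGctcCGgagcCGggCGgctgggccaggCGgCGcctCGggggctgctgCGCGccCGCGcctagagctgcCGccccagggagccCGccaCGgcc

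The Gria2 stretch holds 20 CpGs and that of Grik3 holds 33, which is more than in any of the bound stretches shown. A CpG-dense start was therefore also found at receptor genes without a peak in this list.

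Counts by receptor class are given as descriptions, beside the 14.2% of all protein-coding genes that were bound. NMDA receptor genes had 5 of 7 members bound, or 71.4% (95% exact interval 29.0 to 96.3%). AMPA, kainate and delta receptor genes encode the other ionotropic glutamate receptor subunits. They had 0 of 4 (up to 60.2%), 0 of 5 (up to 52.2%) and 0 of 2 (up to 84.2%) bound. Pooled, which was not 1 of the 16 classes, they had 0 of 11 (up to 28.5%). Of the 60 channel subunit genes 12 were bound (10.8 to 32.3%), and of the 41 G protein-coupled receptor genes 7 (7.15 to 32.1%), so that the intervals of both kinds overlap widely. CpG-rich promoters, as defined further on, were found at 5 of the 7 NMDA receptor genes and at 6 of the 11 other ionotropic glutamate receptor genes, and the part of CpG content in the class counts was not tested. Except for NMDA receptors, the interval of each of the 16 classes included 14.2%. No allowance was made for looking at 16 classes, so the NMDA interval does not establish that this class is set apart. No test was run between classes, because genes are not replicates of a condition and there is 1 library.

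**Figure D1:**
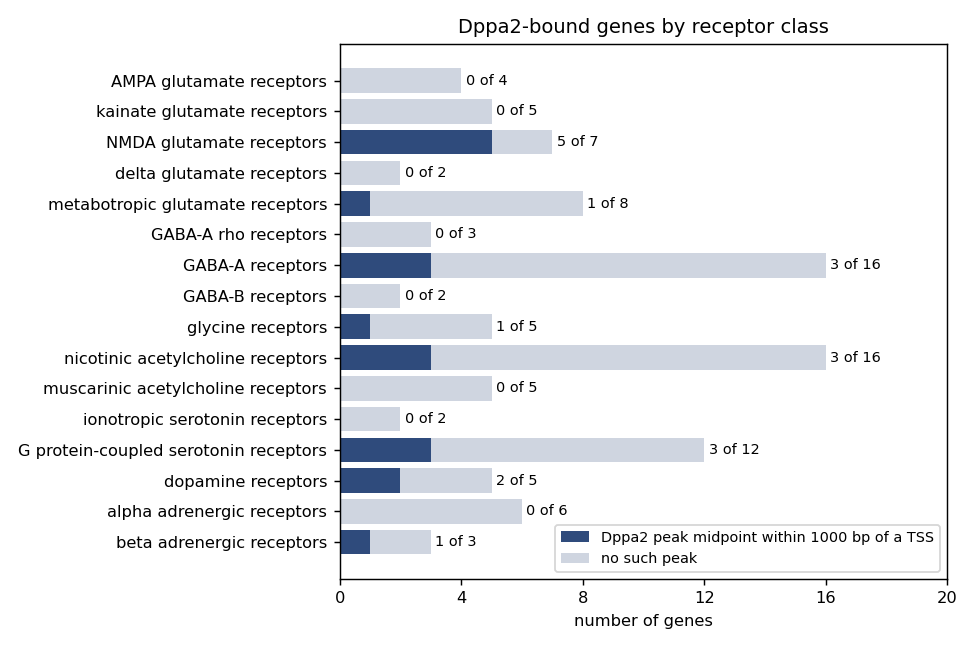
Number of genes in each of the 16 receptor classes, split into those with a Dppa2 peak midpoint within 1000 bp of a TSS (dark) and those without (light). NMDA receptor genes have 5 of 7 bound, and 8 classes have none.

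Each peak carries a score from the authors, which is −log10 of the p-value that MACS gave it over the control, multiplied by 10. Over the 19 peaks it ran from 108 to 619 with a median of 254, and over all 3336 peaks from 100.01 to 3100 with a median of 228. The peaks at receptor genes thus had ordinary scores: 10 of 19 were above the median of all peaks and none was among the 200 highest. Their width ran from 968 to 3177 bp with a median of 1404 bp, against 1433 bp over all peaks. With scores under 200 left out, that is with p-values of at most 1e-20, 12 of the 19 genes were still bound. They made up 11.9% of all receptor genes examined, beside 8.06% of all protein-coding genes. That threshold kept 1977 of the 3336 peaks.

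**Figure D2:**
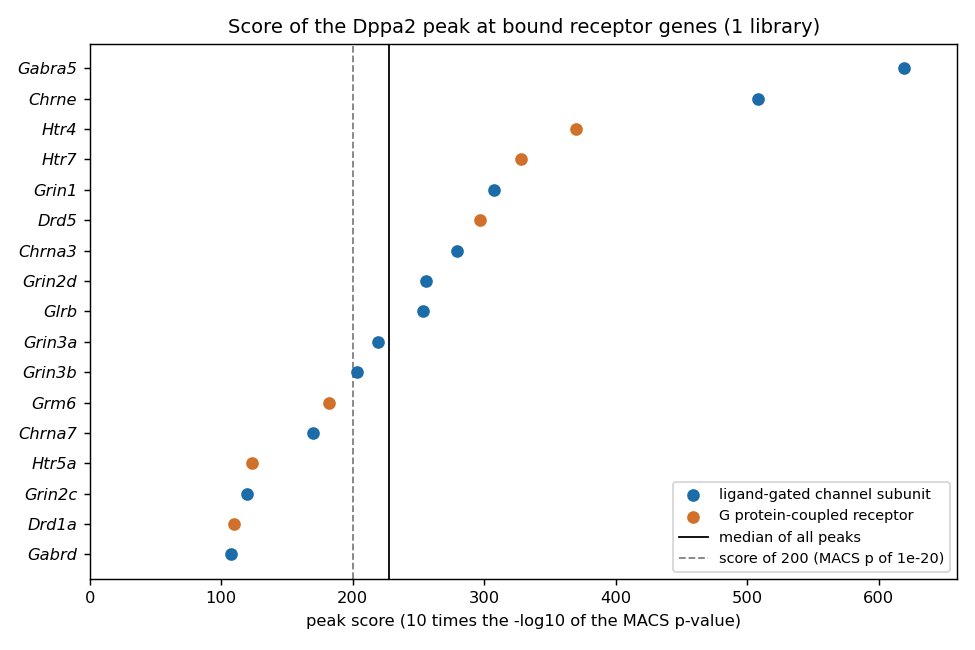
Score of the peak at 17 of the 19 bound receptor genes, on the authors' scale (−log10 p of MACS, multiplied by 10), with the median of all peaks (228, solid line) and the score of 200 (dashed line). Gabra5 and Chrne lie apart at 508 or more, and 6 of the genes shown lie under 200.

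NMDA receptors are tetramers of an obligatory subunit, encoded by Grin1, with glutamate-binding subunits from the Grin2 genes or glycine-binding subunits from the Grin3 genes. Grin1 (ENSMUSG00000026959) had the highest score among them, 308, at chr2:25173930-25174995. Its peak was centred 153 bp into the gene in the 5′ UTR in exon 1 and covered 5 of its 9 annotated TSSs. Grin2d (ENSMUSG00000002771) had a score of 256 at chr7:53124770-53126833, with the midpoint 497 bp into the gene in an intron. Both Grin3 genes were bound as well. The peak at Grin3a (chr4:49857282-49859007) had a score of 219 and was centred in the 5′ UTR, 277 bp downstream of the TSS. That at Grin3b (chr10:79433267-79434280) had a score of 204 and was centred in the coding part of exon 1, 313 bp downstream. Grin2c was the weakest and most displaced case, with a score of 119 at chr11:115126612-115128850 and the midpoint 826 bp into the gene, although the peak still covered the TSS. Grin2c was lost with a window of 500 bp, at which 12.6% of all genes were bound, and also at a score of at least 200, which left 4 NMDA receptor genes. The members without a peak were Grin2a and Grin2b, which encode the glutamate-binding subunits best known from the forebrain. The nearest listed peak midpoint was 547824 bp from a TSS of Grin2a and 155349 bp from one of Grin2b. Judged by its peak names, the list appears to hold only peaks near TSSs, so closer binding elsewhere may not be seen in it.

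Of the 8 metabotropic glutamate receptor genes, 1 was bound, Grm6, whose product is the glutamate receptor of ON bipolar cells in the retina. Its peak (chr11:50664125-50665384) had a score of 182 and was centred in the coding part of exon 2, 266 bp downstream of the nearest TSS. It was 567 bp downstream of the TSS with the largest number of transcripts. Grm4 had the most CpG-rich promoter of all 101 genes and had its nearest listed peak midpoint 142506 bp from a TSS.

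GABA-A receptors are the main inhibitory chloride channels of the brain, and 3 of their 16 genes were bound. Gabra5 (ENSMUSG00000055078), an alpha subunit gene, had the highest score of all receptor genes, 619, which ranked 214 among the 3336 peaks. The peak lay at chr7:64764244-64765647, covered the single annotated TSS and was centred 434 bp into the gene in an intron. Gabrd, which encodes the delta subunit of receptors outside the synapse, had a score of 108 at chr4:154771354-154772722. With rank 3218 it was the weakest of the 19 peaks and close to the lowest score in the list. At a score of at least 200, Gabra5 was the 1 bound GABA-A receptor gene. The 3 rho subunit genes and the 2 GABA-B receptor genes had no peak.

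Among the 5 glycine receptor genes Glrb was bound, and the alpha subunit genes Glra1, Glra2, Glra3 and Glra4 were not. Glrb (ENSMUSG00000028020) encodes the beta subunit, which anchors the receptor to gephyrin at the synapse. Its peak at chr3:80716905-80717872 was the narrowest of the 19, at 968 bp, and the one centred nearest to a TSS, at 62 bp. Its score was 254, and it covered 4 of the 5 annotated TSSs.

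Nicotinic acetylcholine receptors are the cation channels of the neuromuscular junction, autonomic ganglia and brain, and 3 of 16 genes were bound. Chrna3, the alpha subunit of ganglionic receptors, had a score of 280 at chr9:54873355-54874738, with the midpoint 320 bp into the gene. Chrna7, whose product can form receptors on its own, had a score of 170 at chr7:70356593-70357831, with the midpoint 200 bp into the gene. Chrne, the epsilon subunit of the adult muscle receptor, was a different case. Its peak at chr11:70428110-70431286 was the widest of the 19, at 3177 bp, with a score of 508. The midpoint lay inside the gene, 499 bp upstream of the TSS of a short processed transcript. It was 2998 bp from the TSS with the largest number of transcripts, which was outside the peak. Of the 5 annotated TSSs of Chrne, 3 lay within the peak. The TSS of 4930544D05Rik, a transcript annotated on the other strand, was 250 bp from the same midpoint. With TSSs of protein-coding transcripts alone, Chrne was not bound, and 18 of 101 receptor genes were bound beside 14.0% of all protein-coding genes. The 5 muscarinic receptor genes had no peak.

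Of the 12 G protein-coupled serotonin receptor genes 3 were bound: Htr4, Htr5a and Htr7. Htr4, on chromosome 18, had a score of 370, and its peak was the one whose midpoint lay upstream of the gene, 81 bp from the single TSS. Htr7 (ENSMUSG00000024798) had a score of 328 at chr19:36130996-36132433, and all 5 of its TSSs lay within the peak. Htr5a had a score of 123 at chr5:28168094-28169769, centred 444 bp into the gene in the 5′ UTR. The ionotropic serotonin receptor genes Htr3a and Htr3b had no peak, and the nearest listed midpoint was 1596157 bp from the TSS of Htr3b.

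Dopamine receptors are divided into a D1-like and a D2-like type. Both D1-like genes were bound (exact interval 15.8 to 100%), and 0 of the 3 D2-like genes, Drd2, Drd3 and Drd4 (up to 70.8%). Of all protein-coding genes, 14.2% were bound. The intervals of the D1-like and D2-like types overlap widely, and this split was not among the receptor classes counted above. No allowance was made for adding it, so the counts do not establish that either type is set apart. Drd5 (ENSMUSG00000039358) had a score of 297 at chr5:38710079-38712089, centred in its single coding exon 336 bp downstream of the TSS. Drd1a had a score of 110 at chr13:54150173-54151573, close to the lowest in the list, and was not bound at a score of at least 200. The 6 alpha adrenergic receptor genes were not bound. Over all receptor classes, 17 of the 19 peaks had no annotated TSS of another gene within 1000 bp of the midpoint. This rests on distance alone, and some of the peaks reached further than 1000 bp from their midpoint.

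The threshold of distance passed close to 1 further gene. Adra2c, an alpha adrenergic receptor gene with a single TSS, had a peak at chr5:35621112-35623840 with a score of 349 that covered the TSS, but the peak was 2729 bp wide and its midpoint lay 1261 bp into the gene. With the distance taken from the nearest base of the peak Adra2c was bound, which gave 20 receptor genes beside 14.6% of all genes. Chrnd was the other gene with a midpoint within 5 kb, 4741 bp upstream of its TSS at chr1:89080989-89083984. For 58 of the 82 receptor genes without a peak, or 70.7%, the nearest listed midpoint was more than 100 kb away, against 66.1% of all protein-coding genes without one. Because the list appears to hold only peaks near TSSs, these distances do not show that Dppa2 was absent in between.

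At most bound receptor genes, as at most bound genes in general, the peak was centred downstream of the closest TSS. This held for 16 of the 19 receptor genes, or 84.2%, beside 69.3% of all bound protein-coding genes. No interval was computed for this share, so the difference is not read as a trait of the receptor genes. The median position was 200 bp downstream of the TSS, with a range from 499 bp upstream to 826 bp downstream, and over all bound genes 121 bp downstream. By annotation, 9 midpoints fell in introns, 5 in coding exons, 4 in 5′ UTRs and 1 upstream of the gene. The nearest TSS was covered by the peak in all 19 genes. The TSS with the largest number of transcripts, or the 5′-most of those that tied, was covered in 18, the exception being Chrne.

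**Figure D3:**
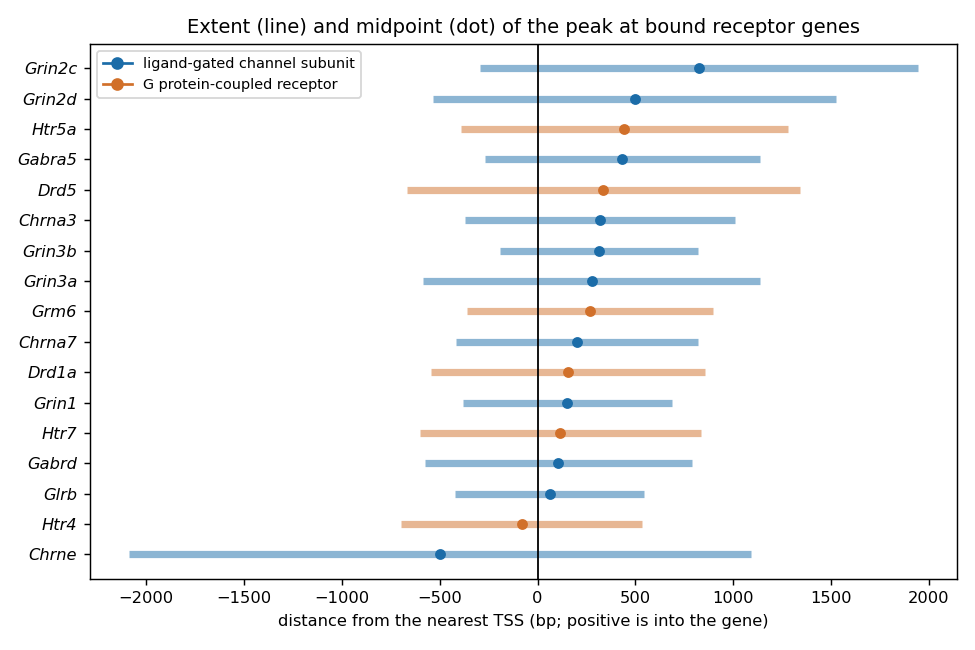
Extent (line) and midpoint (dot) of the peak at 17 of the 19 bound receptor genes, in bp from the nearest annotated TSS, with positive values into the gene and colours for the kind of receptor. The midpoints of 15 genes shown lie to the right of the TSS, and those of Htr4 and Chrne to the left.

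CpG content was measured as the ratio of observed to expected CpGs in the 1000 bp around 1 TSS per gene. This was the TSS with the largest number of transcripts, and the 5′-most of those that tied. The median was 0.691 in the 19 bound receptor genes, with a range from 0.134 to 0.942, and 0.428 in the other 82, with a range from 0.0904 to 0.958. Over all protein-coding genes the medians were 0.776 in bound and 0.467 in other genes. The difference between bound and unbound genes thus had the same direction among the receptors as in the genome, with bound receptor promoters at a lower level than bound promoters at large. Median GC content was 62.3% in bound receptor genes and 54.4% in the others. Within the peaks themselves the median CpG ratio was 0.646 at receptor genes and 0.713 over all 3336 peaks, and the GC content 61.7% and 62.0%.

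**Figure D4:**
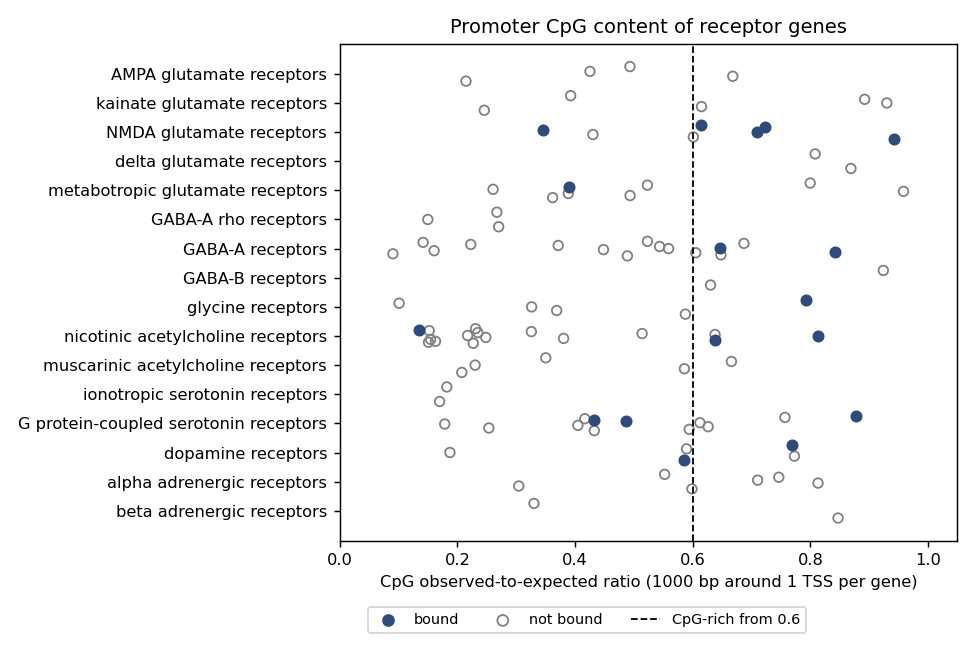
CpG observed-to-expected ratio in the 1000 bp around 1 TSS per gene for 99 of the 101 receptor genes by class, with filled points for Dppa2-bound genes and open points for the others. Bound genes lie mostly to the right of 0.6, and nicotinic receptor genes mostly at low ratios.

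A promoter was called CpG-rich at a ratio of 0.6 or more. Of the receptor genes 37 were CpG-rich, and 13 of these were bound, or 35.1% (95% exact interval 20.2 to 52.5%), beside 23.9% of all CpG-rich genes. Of the 64 others 6 were bound, or 9.38% (3.52 to 19.3%), beside 6.11%. The share was higher in each successive band, as it was over all genes. Under 0.4 it was 3 of 41 receptor genes beside 3.68% of all genes, and from 0.4 to under 0.6 it was 3 of 23 beside 13.1%. From 0.6 to under 0.8 it was 8 of 24 beside 17.8%, and at 0.8 or more 5 of 13 beside 31.2%. In each band the value over all genes lay within the interval of the receptor genes. The CpG-rich band held 36.6% of receptor genes and 45.4% of all genes.

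**Figure D5:**
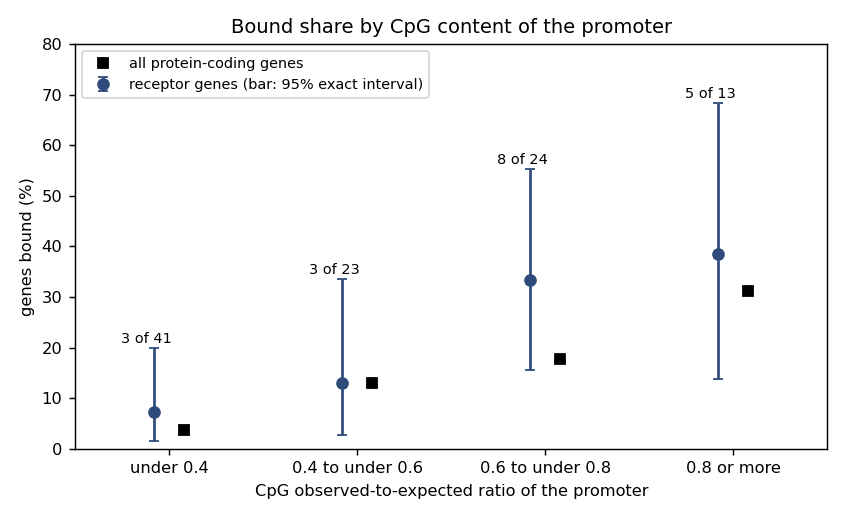
Share of genes with a Dppa2 peak in 4 bands of promoter CpG content, for receptor genes (circles, with 95% exact intervals and counts) and all protein-coding genes (squares). Both shares are highest at 0.8 or more, at 38.5% and 31.2%, and the intervals of the receptor genes are wide.

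Genes at both ends of this scale went against the general order. Among the unbound receptor genes the highest ratios were those of Grm4 (0.958), Grik3 (0.930), Gabbr2 (0.924), Grik4 (0.892) and Grid1 (0.869), all of them glutamate or GABA-B receptor genes. Of these Grik3 had a peak in an intron at chr4:125181077-125182530, with a score of 140 and 13859 bp from the nearest TSS of Grik3. The midpoint of that peak lay within 1000 bp of TSSs of Mir692-2a, a microRNA gene, and Ftl2, a pseudogene. Its position therefore does not assign it to Grik3. Among the bound genes the lowest were those of Chrne (0.134), Grin2d (0.345) and Grm6 (0.390). For Grm6 the peak itself was richer than the window around the TSS, with a ratio of 0.689, while for Grin2d both were low, with 0.302 in the peak. For Chrne, whose peak lies away from the TSS with the largest number of transcripts, the ratio in the peak was 0.388. Across the 7 NMDA receptor genes the ratio did not order the bound genes: Grin2a, without a peak, had 0.601, near the 0.613 of Grin3b and above the 0.345 of Grin2d.

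Promoters were searched on both strands, from 250 bp before to 50 bp after the TSS, for the GC box GGGCGG and the TATA box TATAAA. The GC box was found in 11 of the 19 bound receptor promoters (57.9%) and in 39 of the 82 others (47.6%), beside 43.7% of all protein-coding promoters and 68.4% of all bound ones. With 500 bp to each side of the TSS it was in 17 of the 19 bound promoters (89.5%) and 49 of the 82 others (59.8%), beside 59.6% of all promoters and 87.9% of all bound ones. TATAAA was found in 1 bound receptor promoter, that of Grin3b, and in 6 others, or 6.93% of the 101, beside 13.4% of all promoters. In the stretch of Grin1 printed above, the letters CAGCACCNNGGACAG, a core of the RE1 element at which REST represses neuronal genes outside neurons, are visible near the 5′ end, and they were then searched for in the 1000 bp around every TSS after this had been seen. The core was found at 26 of 22367 promoters, or 0.116%, and at 2 receptor genes, Grin1, which was bound, and Chrnb2, which was not. Of all 3169 bound genes 4 had it.

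Many receptor genes lie close to one another in the genome. With members joined when at most 500 kb apart, 33 receptor genes formed 12 clusters. In these 6 genes were bound, and 13 of the 68 genes outside clusters, beside 14.2% of all protein-coding genes. Of the GABA-A receptor clusters, that of chromosome 7 held the bound Gabra5. In those of chromosome 11 (chr11:41723697-42446092), chromosome 5 (chr5:71142286-72529628) and chromosome X, with 4, 4 and 3 genes, none was bound. Clusters of this size are too small for such a count to be told apart from the share over all genes. In the nicotinic cluster of chromosome 9 (chr9:54828687-54896351) Chrna3 was bound and Chrna5 and Chrnb4 were not. Glrb and Gria2, of different receptor families, were neighbours on chromosome 3, and Glrb alone was bound. By chromosome the highest count was on chromosome 7, with 4 of 9 receptor genes bound beside 9.70% of all its protein-coding genes, and on chromosome X it was 0 of 7 beside 1.82%. Chromosome 7 was picked for its count with no allowance for the other chromosomes, so this does not establish that it is set apart.

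Because 1 best alignment was kept for each read, sequence that the genome holds more than once could draw reads from elsewhere. In 15 of the 19 peaks no 36-mer occurred more than once in mm9, and in Htr4, Grin2d, Chrna3 and Drd1a between 1.02 and 2.5% did. Exact repeats of this length thus made up little of the bound receptor promoters, although reads with mismatches were not covered by this count.

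Genes that work beside the receptors were examined as a second list of 65 transporters, enzymes and scaffold or auxiliary proteins, of which 64 were found in the annotation. Of these 15 were bound, or 23.4% (95% exact interval 13.8 to 35.7%), beside 14.2% of all protein-coding genes, again a share inside the interval. None of the 16 genes for transmitter synthesis and breakdown was bound (up to 20.6%), among them Gad1, Th, Chat and Ache. Of 20 transporter genes 5 were bound, namely the plasma membrane transporters for noradrenaline, dopamine and serotonin, Slc6a2 (score 184), Slc6a3 (208) and Slc6a4 (141), the GABA transporter Slc6a11 (596) and the glutamate transporter Slc1a1 (131). The vesicular transporters on the list that were found in the annotation had no peak. Of the 28 scaffold and auxiliary genes 10 were bound, or 35.7% (18.6 to 55.9%), and the other 18 were not. The list was written with earlier results of these data known, so its subgroups were not tested against all genes. The bound ones were the postsynaptic scaffolds Homer1 (117), Homer2 (375), Homer3 (132), Shank3 (232) and Dlg1 (232), gephyrin (Gphn, 136), the AMPA and kainate receptor auxiliary subunits Cnih2 (406) and Neto2 (281), and the AMPA receptor binding proteins Grip1 (300) and Pick1 (291). The TSS of Gm16320 shared the peak at Grip1, and the other 14 peaks had no further TSS within 1000 bp. CpG-rich promoters were found at 3 of the 16 enzyme genes, 5 of the 20 transporter genes and 14 of the 28 scaffold and auxiliary genes. The part of CpG content in the bound counts of these subgroups was not tested.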

How the data were processed

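Anti-V5 ChIP-seq of V5-Dppa2 CGR8 ESCs was analysed from the deposited peak list, with 1 library per condition. The authors removed low-complexity reads, aligned to mm9 with Bowtie 0.12.7 (seed of 36, at most 2 mismatches, best alignment kept), removed duplicates (Picard 1.81 is named in the submitters' processing notes) and called peaks with MACS 1.4.2 at a shift size of 75 bp against the parental control, with a p-value limit of 1e-10 and a minimum of 100 reads. The deposited score is 10 times the −log10 of that p-value. Other columns give interval and name. Judged by the peak names, the list appears to hold only peaks near TSSs, and binding elsewhere was not analysed here. Depth is unknown.

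Midpoints (no summits are given) were set against GENCODE M1 TSSs on mm9. Members and lists were chosen with earlier results of these data known. Named genes were bound members (2 are counted but not reported singly here), those with a midpoint within 5 kb, the 5 unbound members highest and the 3 bound members lowest in CpG ratio, and bound partner genes; the other genes named serve as contrast or name unbound members of a class. Intervals are exact Clopper-Pearson at 95%. No test between conditions was possible. Distances, CpG counts and 36-mer counts were tested on simulated data. The scripts ran on Python 3.11.15 with matplotlib 3.10.9, numba 0.67.0, pysam 0.24.0, pandas 2.3.3, scipy 1.17.1 and numpy 2.4.6. Alternatives were a stricter score, other windows, peak edges, other TSS sets and merged peaks.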

Additional observations from a re-analysis of the deposited data

How the results depend on the processing

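No paired analysis was possible because a single V5-Dppa2 peak list was compared with no other. Leaving out a replicate was likewise impossible, and with the depth unknown a missing peak does not show absence of binding. The RE1 search and the contrast stretches were chosen after seeing the data. With scores under 200 left out, bound receptor genes fell from 19 to 12, that of partner genes from 15 to 9 and the share of all genes to 8.06%, as fewer peaks enter. Metabotropic glutamate receptors then had 0 bound, GABA-A receptors 1 and dopamine receptors 1. Alpha adrenergic receptors had 1 bound, Adra2c, with windows of 2000 and 5000 bp and with the nearest base of the peak. The share of all genes was 12.6% with a window of 500 bp, 15.5% with 5000 bp and 13.5% with 1 TSS per gene. Receptor genes bound under the other windows and TSS sets numbered 18 to 21, and merging peaks gave the same 19. The median CpG ratio of bound and other receptor genes was 0.711 and 0.459 over 500 bp, 0.609 and 0.426 over 2000 bp, 0.65 and 0.432 at the 5′-most TSS, and 0.707 and 0.433 at the stricter score. With 500 bp to each side of the TSS, 65.3% of receptor promoters held GGGCGG and 22.8% TATAAA. For GGGCGG the gap between bound and other receptor promoters was wider in that window, at 89.5% against 59.8%, beside 87.9% of all bound promoters. GGGCGG itself holds a CpG, and the part of CpG content in this gap was not tested.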
